A study of Mus musculus with 96 samples.

Results

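The genes described are those with more RNA in cerebral cortex than in liver and also than in skeletal muscle of male C57BL/6 mice fed ad libitum (AL). They were chosen from the read counts of AL male mice 2 to 8, with cortex set against each other tissue and the mouse number as a block, by an adjusted p under 0.05 and a fold change above 0 in both contrasts of edgeR's quasi-likelihood test. Of 56748 annotated genes 19557 held enough counts to be tested, and 5993 of them (30.6%) were higher in cortex than in both tissues. The measured values that chose these genes are given as a description and are not a test of them.

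The study set intermittent fasting (IF, a fast of 16 h each day) against AL feeding, with diets begun at 6 weeks of age and kept for 4 months. Its RNA-seq libraries come from cortex, liver and muscle of 8 AL and 8 IF mice of each sex, 96 libraries in all, of which the 21 libraries of AL male mice 2 to 8 were used for the comparison between tissues. Mice were perfused before the tissues were taken, and poly-A RNA was made into directional libraries. The label cortex names no subregion, and the strain and age of the female mice were not given in the sources used here. Counts per library ranged from 32373437 to 39314534 in cortex (median 36820158), from 26097314 to 44763638 in liver (median 36064765) and from 31797545 to 46889676 in muscle (median 36235696).

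Cerebral cortex is built from excitatory neurons that release glutamate, inhibitory interneurons that release GABA, and glia. Astrocytes clear transmitter from synapses, oligodendrocytes wrap axons in myelin and microglia are the resident macrophages. Liver and skeletal muscle share blood vessels and macrophages with cortex to differing degrees. They hold peripheral nerve fibres but no cell bodies of central neurons. In tissue RNA, fewer cells of a type and less RNA per cell cannot be told apart.

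The genes higher in cortex took up most of the cortical reads. They held a median of 53.5% of the counts of a cortex library (range 50.3 to 55.4%), against 4.50% in liver and 5.001% in muscle. By single contrast, 9018 genes (46.1%) were higher in cortex than in liver and 8787 (44.9%) higher than in muscle. Fewer genes, 3774 (19.3%), were lower in cortex than in both. In every cortex library 5066 genes (25.9%) lay above all 14 liver and muscle libraries, and 5058 of these were among the 5993. The smaller of a gene's log2 fold changes had a median of 2.56, with 1368 genes under 1 and 1596 genes at 5 or more. A stricter set of 3483 genes (17.8%) was higher by at least 4-fold in both contrasts and held 33.3% of cortical counts, against 0.594% in liver and 0.688% in muscle. No read at all was counted in liver or muscle for 292 of the 5993 genes.

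**Figure D1:**
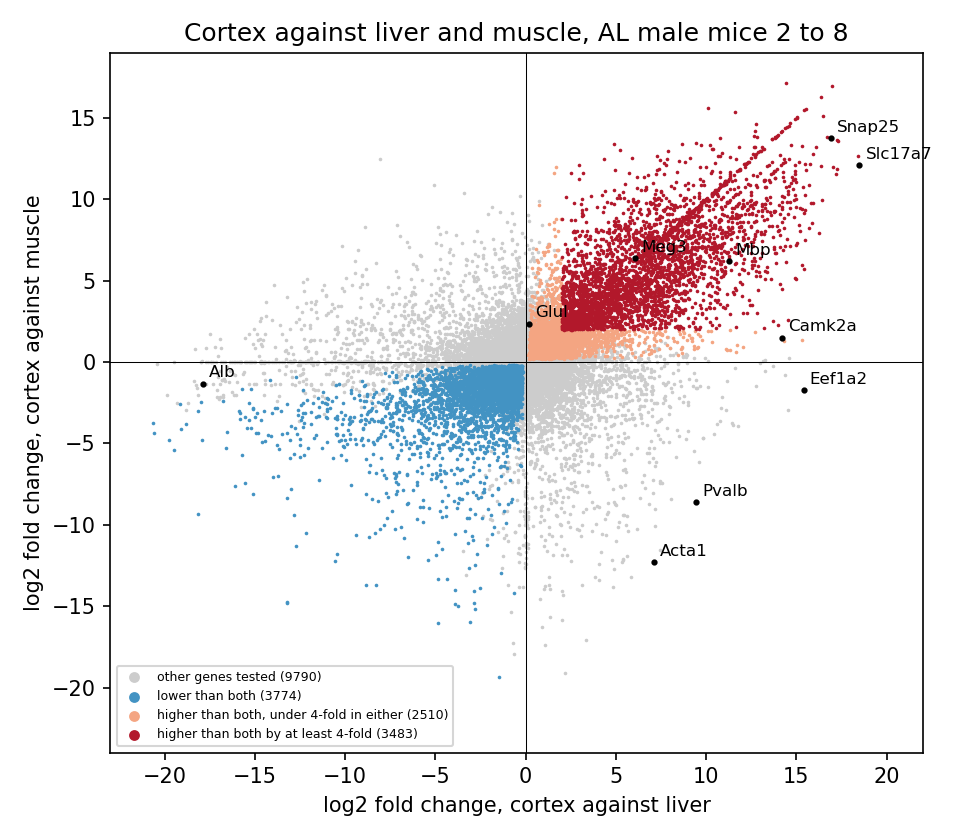
Log2 fold change of cortex against liver (horizontal axis) and against muscle (vertical axis) for the 19557 genes tested, each point a gene fitted over 7 mice. The 3483 genes higher than both by at least 4-fold fill the upper right, and points on the diagonal at its far end are genes with no counts in either other tissue, whose fitted values depend on the prior count; Pvalb, Acta1 and Eef1a2 lie below 0 against muscle.

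These numbers are relative to a scaling between tissues of unlike make-up. The 10 most abundant genes took a median of 29.5% of the counts in liver and 26.6% in muscle but 7.49% in cortex, and the TMM factors that correct for this ran from 1.52 to 1.57 in cortex, 0.804 to 0.964 in liver and 0.715 to 0.778 in muscle. With TMM the median log2 fold change of all genes tested was 0.26 against liver and 0.25 against muscle. Without it, by library size alone, these medians shifted by 0.85 and 1.04, 9378 genes were higher in cortex than in both, and the share of called genes that were higher was 72.0% against liver and 77.8% against muscle, compared with 55.2% and 55.9% with TMM. Upper quartile scaling shifted the medians by -0.16 and -0.21 and left 5451 genes, all among the 5993. Among the lists described here it took 1 gene each from those of astrocytes, hypothalamus, neuronal cytoskeleton, neuronal RNA binding, lactate dehydrogenases and calcium pumps. Values are in CPM, counts scaled by the TMM-adjusted library size, and levels of different genes are compared in RPKM, which divides CPM by the annotated length in kilobases.

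Genes at the threshold itself had small differences or low levels. Prr3, just inside, had 23.3 CPM in cortex and 20.0 CPM in liver, with an adjusted p of 0.0499 against liver by edgeR's quasi-likelihood test. Mesp2, just outside, had 0.506 CPM in cortex and 0.223 CPM in liver, with an adjusted p of 0.0503 in the same test.

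Synaptic vesicle genes stood at the strong end. All 26 genes of vesicle release and recycling were higher in cortex than in both tissues, with a median log2 fold change of 8.48 against liver and 7.64 against muscle. Snap25 (ENSMUSG00000027273, GRCm39 chromosome 2, 136555373 to 136624348) encodes a membrane-bound SNARE protein of the fusion machinery. It ranged from 1410 to 1791 CPM in cortex (median 1525), while no liver library exceeded 0.08685 CPM and no muscle library 0.252 CPM. The groups did not overlap. Its log2 fold change against muscle was 13.78 ± 0.31 (SE, n = 7 mice), and the liver libraries held 2 counts in all, too few for a fold change.

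Other release genes differed in their levels outside cortex. Vamp2, the vesicle SNARE, had a median of 1105 CPM in cortex but 74.0 CPM in muscle and 17.1 CPM in liver, with no overlap between the groups. Syt1, the calcium sensor of fast release, had a median of 701 CPM in cortex, 4.42 CPM in liver and 0.0814 CPM in muscle, the reverse order of the other tissues. Syn1, which tethers vesicles to one another, fell between 436 and 575 CPM in cortex and under 1 CPM in every other library. Complexin gene Cplx1 had no counts in liver and was at least 37220-fold higher in cortex than the floor there, taken as 3 counts over the 7 libraries.

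The receiving side of the synapse was nearly as complete. Of 18 postsynaptic scaffold genes 17 were higher in cortex than in both, with medians of 5.40 and 5.97 on the log2 scale against liver and muscle; the exception was Homer3. Dlg4, which encodes the main scaffold of excitatory synapses, ranged from 691 to 856 CPM in cortex (median 733) and reached at most 5.77 CPM in liver and 13.95 CPM in muscle. Its cortex libraries did not overlap the others. Ppp1r9b, which encodes a spine protein that targets protein phosphatase, had a median of 1097 CPM in cortex against 48.2 CPM in muscle and 12.8 CPM in liver.

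Glutamate receptors followed the same pattern. Of 18 ionotropic subunits 17 were higher in cortex than in both, with medians of 7.58 and 8.00, and Grin3b was not. Grin1, the obligatory NMDA receptor subunit, had 311 to 398 CPM in cortex (median 343), no count in liver and at most 0.106 CPM in muscle. Per length, Grin1 had a mean of 36.1 RPKM in cortex, above Grin2c at 10.4 RPKM, Grin2a at 4.61 RPKM and Grin2b at 4.09 RPKM. The ranges of Grin2a (3.97 to 5.36 RPKM) and Grin2b (3.32 to 4.78 RPKM) overlapped. The order of these subunits depends on their annotated lengths. Grin1 and Grin2c each overlap 1 annotated gene on the opposite strand and Grin2b overlaps 4, while Grin2a overlaps 0. All 7 metabotropic receptors tested were higher in cortex than in both, with a median of 12.49 against liver and 9.63 against muscle, or 10.40 against liver with genes at 0 set to their bound; Grm6 was not tested for want of counts.

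GABA and modulator receptors were less uniform. Of 16 GABA receptor genes tested 14 were higher than both, with medians of 8.73 (7.99 with genes at 0 at their bound) and 7.71, while Gabre was lower than in both and Gabrq was not called against both. Gabbr1, a subunit of the GABA-B receptor, ranged from 388 to 436 CPM in cortex and was detected in all liver libraries, at 7.82 to 14.02 CPM. Of 25 receptors for acetylcholine, monoamines, adenosine, cannabinoids and opioids, 19 were higher than both, with medians of 7.96 (6.67 at the bound) and 6.38. Chrm1, a muscarinic receptor of cortical neurons, ranged from 109 to 151 CPM in cortex and stayed under 1 CPM elsewhere. The nicotinic subunit Chrna1 of the neuromuscular junction went the other way against muscle, with 0.377 to 0.771 CPM in cortex and 10.2 to 17.9 CPM in muscle.

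Ion channel families split by tissue. Among 13 voltage-gated sodium channel genes tested 9 were higher in cortex than in both, with medians of 7.13 and 4.02. The axonal channels Scn1a, Scn2a and Scn8a had mean levels of 3.90, 6.04 and 9.64 RPKM in cortex and were under 0.1 RPKM on average in both other tissues. Scn4a, the channel of skeletal muscle, had 319 to 447 CPM in muscle and was at 0 in all but 1 cortex library.

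Potassium and calcium channels repeated this split. Of 20 potassium channel genes 14 were higher in cortex than in both, with medians of 8.08 and 3.40. Kcna7 was a muscle gene, at 96.1 to 124 CPM there and at most 0.0857 CPM in cortex. Of 26 calcium channel genes 19 were higher in cortex than in both, with medians of 6.82 (6.37 at the bound) and 5.05. Cacna1e, a presynaptic and dendritic channel, ranged from 112 to 145 CPM in cortex, and the AMPA receptor partner Cacng3 from 101 to 120 CPM with no count in liver or muscle. The muscle dihydropyridine receptor genes Cacna1s and Cacng1 had medians of 636 and 610 CPM in muscle and 0.139 and 0.108 CPM in cortex.

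Markers of both neuron classes of the cortex were present in every cortex library. All 9 glutamatergic markers were higher in cortex than in both tissues, with medians of 12.63 against liver and 10.41 against muscle, or 10.53 and 9.97 with genes at 0 at their bound. Slc17a7 (ENSMUSG00000070570, chromosome 7, 44813373 to 44825566), the vesicular glutamate transporter of cortical projection neurons, ranged from 1042 to 1468 CPM (median 1140) with no counts in liver and at most 0.432 CPM in muscle. It was at least 84430-fold higher in cortex than the floor in liver. The transcription factors Tbr1 (median 81.4 CPM), Neurod2 (67.1 CPM) and Neurod6 (50.4 CPM), which mark projection neurons, did not exceed 0.402 CPM in any liver or muscle library.

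Camk2a was an exception in degree. The gene encodes the alpha subunit of CaM kinase II, and a shorter product of the same locus is known from skeletal muscle. It had 1238 to 1965 CPM in cortex (median 1612) and 499 to 640 CPM in muscle (median 567), against at most 0.303 CPM in liver. The cortex and muscle ranges did not overlap, and the log2 fold change was 14.22 ± 0.39 against liver but 1.499 ± 0.21 against muscle. Gene counts do not separate the products of the locus. In the family of 4 kinase genes 2 were higher in cortex than in both, and Camk2d and Camk2g were not.

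Markers of upper and deep cortical layers were both present. Of 15 layer markers 14 were higher in cortex than in both, with medians of 6.67 and 4.86, and Scnn1a was not. Cux2 of the upper layers ranged from 42.2 to 85.3 CPM in cortex and reached 1.34 CPM in liver and 3.03 CPM in muscle. Fezf2 of the deep layers ranged from 18.2 to 41.3 CPM with no count in the other tissues. The summed level of the list was even across mice, at 452 to 546 CPM.

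Of 18 interneuron markers 16 were higher in cortex than in both, with medians of 10.97 against liver (9.18 at the bound) and 8.69 against muscle. Gad1, a glutamate decarboxylase that makes GABA, ranged from 142 to 247 CPM in cortex with at most 0.286 CPM elsewhere. Gad2 and the vesicular GABA transporter gene Slc32a1 had medians of 59.7 and 78.2 CPM and no counts in liver or muscle. The peptide gene Sst, at 190 to 334 CPM (median 284), was also without a count there and was at least 17570-fold higher than the floor in muscle. For each of these 4 genes the cortex libraries lay above all others.

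The 2 interneuron markers outside the set were expressed in another tissue. Pvalb, a calcium buffer of fast-spiking interneurons and of fast muscle fibres, had 35.7 to 75.8 CPM in cortex and 21030 to 26800 CPM in muscle, with a log2 fold change of -8.59 ± 0.32. Reln, which encodes an extracellular guidance protein, had 20.5 to 35.6 CPM in cortex and 25.7 to 34.9 CPM in liver, which overlapped; its log2 fold change of -0.17 ± 0.10 against liver became 0.68 by library size alone.

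**Figure D2:**
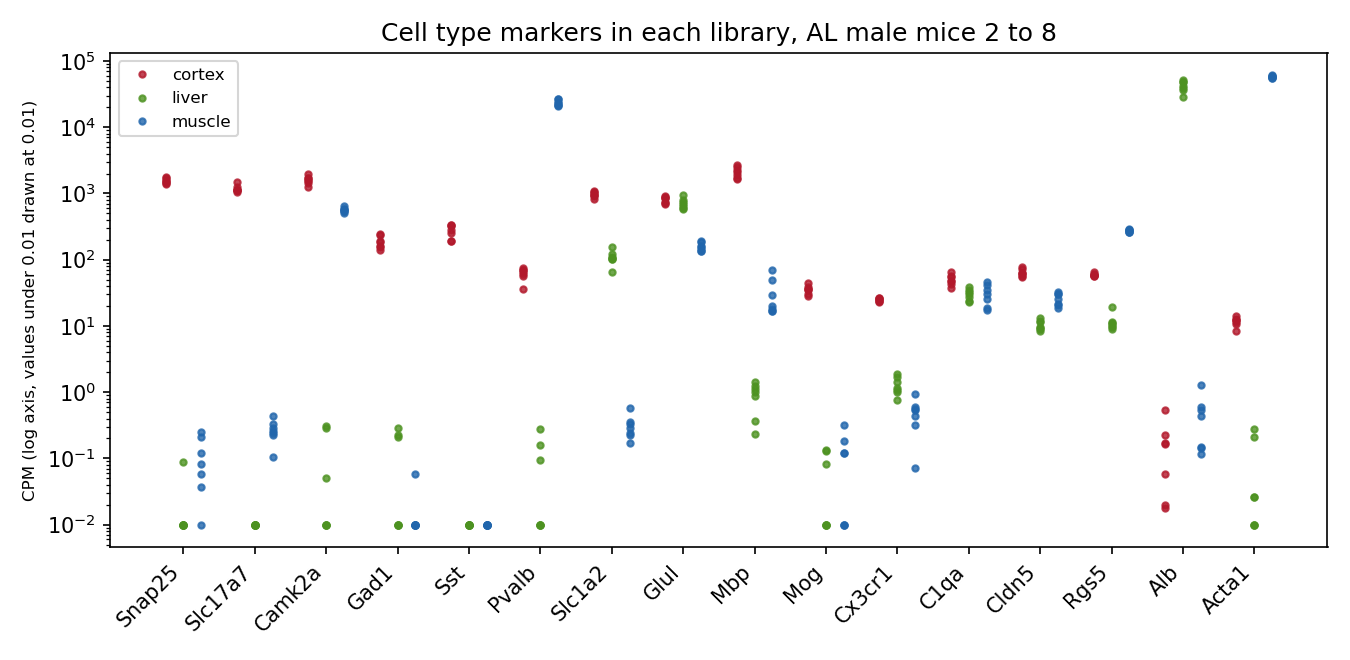
CPM on a log axis of 16 marker genes in each of the 21 libraries of AL male mice 2 to 8, with each point a library and values under 0.01 drawn at 0.01. Cortex libraries (red) lie above liver (green) and muscle (blue) for Snap25, Slc17a7, Gad1, Sst, Mbp, Mog and Cx3cr1, overlap liver for Glul and lie below muscle for Pvalb, Rgs5 and Acta1.

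Genes tested from the lists of neuropeptides and of the granule proteins that carry them were all in the set. All 16 genes tested of the neuropeptide list were higher in cortex than in both, with medians of 11.42 and 9.37, or 10.10 and 9.16 at the bound. In liver 11 of them had no counts. Gal of this list was not tested and had a median of 0.126 RPKM in cortex and 0.413 RPKM in muscle. The peptide genes Oxt and Agrp of the hypothalamic list were tested and were not in the set. Cck ranged from 327 to 531 CPM in cortex, Npy from 43.2 to 88.6 CPM and Vip from 18.9 to 32.99 CPM. Vgf, whose product is a granin cut into peptides, was even across mice at 420 to 485 CPM. All 10 granule and processing genes were higher than both, with medians of 13.74 (12.35 at the bound) and 10.45. Pcsk1n, an inhibitor of the prohormone convertase, had a median of 1171 CPM and no counts in liver. Cpe, the carboxypeptidase that trims prohormones, was an exception in muscle, where it had 288 to 432 CPM against 1276 to 1529 CPM in cortex.

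The neuronal cytoskeleton was called in full. All 21 genes were higher in cortex than in both, with medians of 11.03 and 8.58. The neuronal tubulin Tubb3 ranged from 270 to 336 CPM in cortex and did not exceed 1.32 CPM elsewhere. Map2 of dendrites had a median of 331 CPM and the neurofilament gene Nefl 210 CPM, the latter with no counts in liver. Mapt, the axonal tau gene, had 229 to 295 CPM in cortex but also 91.2 to 124 CPM in muscle, with a log2 fold change of 1.29 ± 0.09 there. Sncb (ENSMUSG00000034891, chromosome 13, 54906673 to 54914408), which encodes beta-synuclein, had 362 to 505 CPM in cortex and no counts in the 14 other libraries. It was at least 29860-fold above the liver floor and 27080-fold above the muscle floor.

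RNA-binding proteins of neurons were mostly but not all in the set, at 18 of 24 genes with medians of 4.72 and 3.18. Rbfox3, whose product is the neuronal nuclear antigen NeuN, ranged from 225 to 304 CPM in cortex and did not exceed 2.16 CPM elsewhere. In the Elavl family, neuronal Elavl3 had a median of 170 CPM in cortex and at most 0.527 CPM elsewhere. Ubiquitous Elavl1 had 35.4 to 43.7 CPM in cortex, 29.9 to 48.6 CPM in liver and 34.9 to 43.9 CPM in muscle, and these overlapped. Its log2 fold change of -0.02 ± 0.09 against muscle became 1.03 by library size alone. Ptbp1, a splicing repressor of non-neuronal cells, was lower in cortex than in liver, at medians of 20.6 and 44.7 CPM, a call lost by library size alone, and was higher than in muscle (15.9 CPM). Its neuronal relative Ptbp2 was higher than in both, at 44.5 CPM against 22.2 and 14.5 CPM.

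REST is a zinc finger repressor that keeps neuronal genes off in other tissues. Its gene was lower in cortex than in both, and a part of REST in the levels of the set was not tested. Rest (chromosome 5, 77413338 to 77434279) had 1.40 to 2.39 CPM in cortex (median 1.66), 5.56 to 10.5 CPM in liver (median 8.72) and 7.06 to 11.3 CPM in muscle (median 8.996). Every cortex library lay below every other library, and the log2 fold change was -2.27 ± 0.15 against liver and -2.35 ± 0.15 against muscle. Of 6 genes of the REST complex, Rest, Rcor3 and Ctdsp1 were lower in cortex than in both, with list medians of -0.71 and -1.63, and Rcor2 alone was higher. Rcor2, a corepressor of neural cells, had 10.99 to 14.02 CPM in cortex and at most 1.71 CPM elsewhere.

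REST binds a bipartite element, and the promoters of these genes were searched for its core. The letters CAGCACC, any 2 bases and GGACAG were sought on both strands in windows of 300 bases, from 250 bases before to 50 bases after the start of each canonical transcript. Among 15551 promoters of protein-coding genes tested, 6 (0.0386%) held an exact match and 33 (0.212%) a match with at most 1 mismatch. Among 5009 promoters of genes higher in cortex than in both these numbers were 6 (0.12%) and 18 (0.359%), and among the 2720 of the 4-fold set 6 (0.221%) and 15 (0.551%). Of 3167 promoters of genes lower in cortex than in both, 0 held an exact match and 3 (0.0947%) a match with at most 1 mismatch. With at most 2 mismatches the shares lay closer together, at 1.96% of all promoters, 2.16% of those of the set, 2.32% of the 4-fold set and 1.67% of the genes lower in both. A match is a description of the letters and not a binding site, and no test of these shares was made.

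The exact matches were in the promoters of Hrh3, Fam163b, Ogdhl, Fbll1, Lca5 and Olfr464, named after their values were seen. Hrh3, the presynaptic histamine receptor gene, had a mean of 89.3 CPM in cortex and no counts in liver. The others had means from 0.494 CPM (Olfr464) to 101 CPM (Fam163b) in cortex. Matches with 1 mismatch also lay in genes outside the set, among them Tsr3, Mtrr and Parp16, which were lower in cortex than in both. The windows of Hrh3 and of Syn1, Vgf and Grin2c, the latter with 1 mismatch each, show where the matched letters lie. These windows, all of the 4-fold set, were picked after the matches were seen. They were read from GRCm39 on the strand of the gene at chr2:179746241-179746540 (minus), chrX:20787348-20787647 (minus), chr5:137058880-137059179 (plus) and chr11:115158476-115158775 (minus), with the matched 15 bases in capitals. In Hrh3, Vgf and Grin2c the match was on the opposite strand, and so reads as the reverse complement.
Hrh3: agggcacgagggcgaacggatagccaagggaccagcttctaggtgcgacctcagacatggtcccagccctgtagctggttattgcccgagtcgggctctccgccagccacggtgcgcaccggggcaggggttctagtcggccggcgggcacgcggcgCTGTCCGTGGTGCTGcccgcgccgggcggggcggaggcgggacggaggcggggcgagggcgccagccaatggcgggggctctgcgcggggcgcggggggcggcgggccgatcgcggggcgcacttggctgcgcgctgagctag
Syn1: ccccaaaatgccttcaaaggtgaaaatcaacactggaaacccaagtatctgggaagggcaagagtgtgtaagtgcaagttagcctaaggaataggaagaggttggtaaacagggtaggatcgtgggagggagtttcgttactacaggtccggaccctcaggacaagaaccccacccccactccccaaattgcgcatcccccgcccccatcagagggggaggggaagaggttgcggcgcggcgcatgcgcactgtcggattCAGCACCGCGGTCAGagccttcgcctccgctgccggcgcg
Vgf: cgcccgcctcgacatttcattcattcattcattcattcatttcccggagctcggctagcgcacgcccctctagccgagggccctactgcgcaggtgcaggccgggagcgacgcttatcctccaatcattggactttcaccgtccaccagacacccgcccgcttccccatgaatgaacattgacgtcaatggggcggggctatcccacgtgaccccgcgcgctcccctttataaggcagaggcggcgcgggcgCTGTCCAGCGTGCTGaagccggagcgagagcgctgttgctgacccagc
Grin2c: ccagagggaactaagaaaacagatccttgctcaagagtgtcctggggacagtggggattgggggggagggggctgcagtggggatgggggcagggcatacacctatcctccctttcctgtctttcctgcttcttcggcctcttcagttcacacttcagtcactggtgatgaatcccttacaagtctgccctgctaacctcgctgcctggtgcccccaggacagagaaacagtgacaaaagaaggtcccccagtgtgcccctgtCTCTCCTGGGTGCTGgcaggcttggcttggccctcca

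Glial markers were mixed. Of 14 astrocyte markers 9 were higher in cortex than in both, with medians of 4.27 and 4.99. Slc1a2, the main glutamate transporter of astrocytes, ranged from 811 to 1087 CPM in cortex, from 64.9 to 157 CPM in liver and from 0.173 to 0.570 CPM in muscle. Gfap, the astrocyte intermediate filament, had 64.9 to 127 CPM in cortex and at most 0.879 CPM elsewhere. Glul, which makes glutamine, had 697 to 903 CPM in cortex and 587 to 962 CPM in liver, which overlapped, and the folate enzyme gene Aldh1l1 was lower in cortex (31.3 to 43.1 CPM) than in liver (764 to 947 CPM). By library size alone Glul passed the threshold against liver, at a log2 fold change of 1.03.

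Myelin genes were abundant. Of 15 oligodendrocyte markers 14 were higher in cortex than in both, with medians of 9.59 and 7.32, and Myrf was not. Mbp, a structural protein of myelin, ranged from 1675 to 2693 CPM in cortex (median 2081), from 17.0 to 69.6 CPM in muscle and from 0.237 to 1.43 CPM in liver, with no overlap. Of 7 Schwann cell markers, those of peripheral myelin, 1 was higher in cortex than in both. Mog, which oligodendrocytes place on the outer surface of myelin, had 28.2 to 44.1 CPM in cortex and at most 0.324 CPM in muscle. Of 6 markers of oligodendrocyte precursors 4 were higher than both, with medians of 6.19 and 5.04; Pdgfra and Cspg4 reached similar levels in muscle, where their log2 fold changes were 0.28 ± 0.13 and 0.05 ± 0.22.

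Microglial markers were called in smaller steps. Of 15 genes 13 were higher in cortex than in both, with medians of 3.30 and 3.02, and Aif1 and Sall1 were not. Cx3cr1, the fractalkine receptor, ranged from 23.1 to 26.5 CPM in cortex and reached at most 1.86 CPM in the other libraries. P2ry12 and Tmem119, used to tell microglia from other macrophages, had medians of 16.0 and 20.5 CPM in cortex and did not overlap the other tissues. C1qa, a complement gene that macrophages share, had 36.9 to 65.2 CPM in cortex, 23.2 to 38.1 CPM in liver and 17.2 to 46.7 CPM in muscle, which overlapped, and it was not called in any of the other mouse groups.

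Vessel genes were mixed. Of 10 endothelial markers 5 were higher in cortex than in both, with medians of 3.33 and 1.18. Slco1c1, the thyroid hormone transporter of the blood-brain barrier, had 28.2 to 36.5 CPM in cortex and at most 0.620 CPM elsewhere, and Slc7a5, which carries large amino acids, 38.2 to 53.8 CPM against at most 7.22 CPM. Cldn5 of tight junctions was higher at a log2 fold change of 2.61 ± 0.14 against liver and 1.34 ± 0.13 against muscle. The general endothelial gene Pecam1 was lower in cortex than in both (log2 fold change -0.31 ± 0.08 against liver, 0.54 by library size alone, and -2.19 ± 0.09 against muscle). Mfsd2a, a lipid transporter of the blood-brain barrier, had a lower median in cortex (12.2 CPM) than in liver (29.9 CPM) and was not called against liver by library size alone. Flt1, Itm2a and Ly6c1 were higher in cortex than in liver but lower than in muscle, at log2 fold changes of -0.40 ± 0.13, -1.31 ± 0.17 and -1.57 ± 0.20 there. By library size alone Flt1 turned to 0.65 against muscle and Itm2a was not called. None of 6 mural cell markers was in the set, with medians of 0.46 and -2.09, and Rgs5 of pericytes had 56.4 to 65.1 CPM in cortex and 262 to 286 CPM in muscle.

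Hepatocyte and muscle fibre genes were at low levels in the cortex libraries. Of 7 hepatocyte and 7 muscle fibre markers none was higher in cortex than in both, and their summed levels there were 0.468 to 1.55 CPM and 10.7 to 15.9 CPM, against 49220 to 79440 CPM in liver and 179200 to 196900 CPM in muscle. Alb reached 0.545 CPM in cortex. Of the muscle list most cortical counts came from Acta1, at 8.53 to 14.2 CPM. All 5 erythrocyte genes were lower in cortex than in both, with medians of -2.27 and -1.44, though they summed to 115 to 316 CPM there. Of these Hba-a1 ranged from 49.8 to 132 CPM in cortex and from 94.1 to 488 CPM in muscle; its near-identical copy Hba-a2 may share its reads.

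Markers of neighbouring brain regions varied between the cortex libraries. All 10 striatal markers were among the genes higher in cortex than in both, with medians of 10.90 and 9.74 (9.60 and 9.36 at the bound). Their summed level, led by Ppp1r1b, was 464, 173, 953.5, 869, 1924, 747 and 194.5 CPM in mice 2 to 8 in order of number. Drd2, the dopamine receptor of striatal projection neurons, ranged from 1.62 to 69.3 CPM and Adora2a, the adenosine receptor of the same cells, from 2.49 to 118 CPM. Mouse 6 was highest and mice 3 and 8 were lowest for both, and the lowest Adora2a values lay within the range of muscle (2.33 to 4.75 CPM). Both genes were among the 5 with the largest coefficient of variation in the set, together with Lrrc10b (2.62 to 91.1 CPM), Calb2 and Shisa8.

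Olfactory bulb and choroid plexus markers picked out other mice. Calb2 and Shisa8 had 71.0 and 28.2 CPM in mouse 5 and 55.7 and 32.9 CPM in mouse 8, against at most 14.8 and 6.71 CPM in the rest. The olfactory bulb markers, led by Doc2g, summed to 50.5 and 49.7 CPM in these mice and to between 4.02 and 8.09 CPM in the other 5. Of this list 1 of 3 genes tested was in the set and Eomes was not tested. Some interneuron markers were also highest in these mice. Gad1 had 234 and 247 CPM in mice 5 and 8 against at most 194 CPM in the rest, Dlx1 22.3 and 21.7 CPM against at most 9.01 CPM, and Dlx2 11.2 and 10.5 CPM against at most 4.88 CPM. Gad2 and Slc32a1 were instead highest in mice 5 and 6, and Sst in mouse 4. The part of the olfactory bulb in these values was not tested. Choroid plexus and ependymal markers summed to 2084 CPM in mouse 4 and 388 CPM in mouse 2 and to at most 38.5 CPM in the others. In mice 4 and 2 nearly all of this was Ttr, at 2034 and 371 CPM, a thyroid hormone carrier that liver secretes as well, and Ttr fell to 2.56 CPM of a sum of 7.69 CPM in mouse 8. Of this list 3 of 5 genes tested were in the set, among them Foxj1 of motile cilia. Kl and Clic6 were also highest in mouse 4, at 15.7 and 11.9 CPM. Hippocampal markers (3 of 5), thalamic (1 of 3), hypothalamic (1 of 3) and cerebellar markers (1 of 1) summed to at most 25.3, 18.0, 3.68 and 22.6 CPM in cortex.

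The part of such regions in the number of genes higher in cortex was not tested. Without mice 2 and 4 the number was 5818, of which 5718 were shared with the 5993. It was 5799 (5680 shared) without mice 5 and 8, and 5154 (5002 shared) without mice 4 to 7, where 3 mice remain. These fits were chosen after seeing the data.

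**Figure D3:**
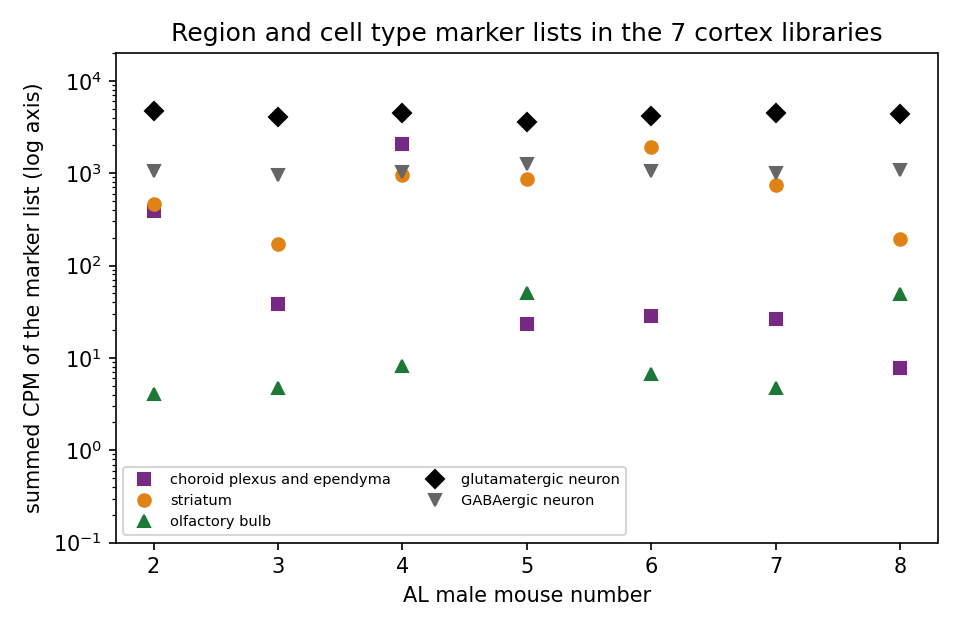
Summed CPM, on a log axis, of 5 marker lists in the cortex libraries of AL male mice 2 to 8, with each point a library. Glutamatergic and GABAergic lists stay within 3618 to 4705 and 947 to 1245 CPM, while the choroid plexus list runs from 7.69 to 2084 CPM, the striatal list from 173 to 1924 CPM and the olfactory bulb list from 4.02 to 50.5 CPM.

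Immediate early genes varied between mice. Of 12 genes 9 were higher in cortex than in both, with medians of 5.17 and 4.34. Dusp1 was lower than in both, at -0.53 ± 0.18 against liver and -1.22 ± 0.18 against muscle; the former turned to 0.32 by library size alone and missed the threshold without the mouse block (-0.47), and the latter was not called by library size alone. Ier2 was lower than in liver, at -2.01 ± 0.16. Nr4a1 was higher than in liver and had a log2 fold change of -0.12 ± 0.25 against muscle, which became 0.94 by library size alone. Egr1, a transcription factor induced by synaptic activity, ranged from 229 to 492 CPM in cortex and up to 116 CPM in liver. Arc, whose product acts at active synapses, ranged from 81.3 to 417 CPM in cortex and was at most 2.04 CPM elsewhere. Fos ranged from 14.2 to 68.5 CPM, with mouse 3 apart from the others. Mice 3 and 7 had the highest summed level of the list (1756 and 1323 CPM) and mice 5 and 6 the lowest (640 and 630 CPM).

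Isozymes of energy metabolism are given per length. Hexokinase Hk1 had 27.03 to 34.8 RPKM in cortex, at most 0.447 RPKM in liver and 1.62 RPKM in muscle, and was the only one of 4 hexokinases in the set. Hk2 had a median of 41.3 RPKM in muscle, against 0.261 RPKM in cortex. Aldoc was the aldolase of the set (195 to 245 RPKM in cortex, at most 2.05 RPKM elsewhere), while Aldoa was more abundant in cortex at a median of 547 RPKM but had a median of 12080 RPKM in muscle. Eno2, the neuronal enolase, had 128 to 158 RPKM in cortex and at most 0.464 RPKM elsewhere. Eno1, which most tissues use, was also in the set, and Eno3 was lower in cortex than in both.

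Pfkp and Pfkl were in the set and Pfkm was not, with 1 of 2 phosphoglycerate mutases and 1 of 2 lactate dehydrogenases. Ldhb had a median of 260 RPKM in cortex and 123 RPKM in muscle and was no longer higher than both under upper quartile scaling. Brain glycogen phosphorylase Pygb had a median of 19.2 RPKM in cortex, against 0.616 RPKM in liver and 1.42 RPKM in muscle. Pygl had 34.4 RPKM in liver and Pygm 4148 RPKM in muscle; the log2 fold change of Pygl against muscle, -0.16 ± 0.19, became 0.89 by library size alone. Neither glycogen synthase gene was in the set. Creatine kinase Ckb (525 to 656 RPKM in cortex, at most 9.95 RPKM elsewhere) and Ckmt1 were, and Ckm, at 7264 RPKM in muscle, was at 0.0115 RPKM in cortex.

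Of 4 glucose transporters, Slc2a1 of barrier endothelium and astrocytes (median 16.4 RPKM in cortex) and neuronal Slc2a3 (10.7 RPKM) were in the set. Of 6 sodium pump genes 4 were in the set. Of 7 calcium pump genes 5 were in the set, of 6 fatty acid binding proteins tested 2 (Fabp7 among them), of 3 carnitine palmitoyltransferases 1 and of 2 glutaminases 1. Cpt1c, the brain form, had 15.3 to 17.7 RPKM in cortex, and the liver form Cpt1a 1.29 to 1.65 RPKM there.

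Neither gene of elongation factor 1 alpha was in the set, with Eef1a2 at a median of 543 RPKM in cortex and 1854 RPKM in muscle and no counts in 5 of 7 liver libraries. Eef1a1 had 451 to 578 RPKM in cortex and 395 to 648 RPKM in liver, which overlapped, and its log2 fold change against liver of -0.09 ± 0.12 became 0.76 by library size alone. Of 8 nuclear cytochrome oxidase genes that exist as tissue isoforms 1, Cox8a, was in the set. Of the genes lower in cortex than in both, the 5 with the highest RPKM in the lower of the other tissues were mitochondrially encoded. Of these mt-Co1 had a mean of 8714 RPKM in cortex, 42910 RPKM in liver and 24000 RPKM in muscle, and mitochondrial genes took a median of 7.04% of counts in cortex, 20.95% in liver and 11.4% in muscle.

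**Figure D4:**
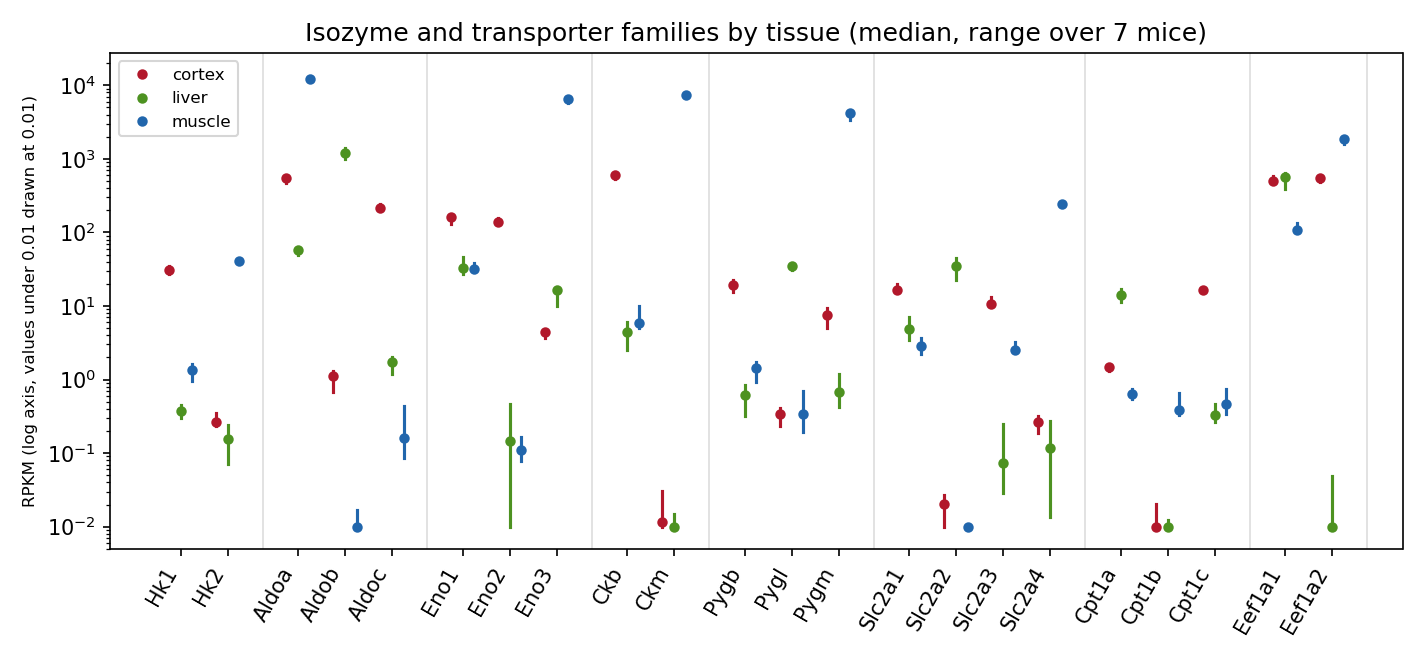
RPKM on a log axis of isozyme and transporter families in cortex, liver and muscle, with points the medians and lines the ranges over 7 mice and values under 0.01 drawn at 0.01. Hk1, Aldoc, Eno2, Ckb, Pygb and Cpt1c are higher in cortex than in both other tissues, each beside a relative that is higher in liver or muscle.

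By level rather than by difference, the 10 genes with the most RNA per length in the set were mt-Rnr2, Nrgn, Calm2, Cox8a, Calm3, Ckb, Cpe, Pcsk1n, Camk2n1 and Stmn3. Nrgn, whose product binds calmodulin in dendritic spines, ranged from 696 to 1056 RPKM in cortex and did not exceed 2.17 RPKM elsewhere. Calm2, a calmodulin gene, had a median of 811 RPKM in cortex, 175 RPKM in muscle and 30.1 RPKM in liver, with no overlap. The mitochondrial ribosomal RNA mt-Rnr2 was higher than in both at log2 fold changes of 0.89 ± 0.16 and 1.08 ± 0.16, in poly-A selected RNA, and nuclear copies may share its reads.

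Of the set 688 genes were lncRNAs (11.5%), against 12.6% of all genes tested and 15.8% of the 4-fold set. All 7 genes of a list of imprinted and neuronal lncRNAs were in it, with medians of 5.26 and 5.69. Meg3 (ENSMUSG00000021268, chromosome 12, 109506879 to 109538165), an imprinted RNA expressed from the maternal allele, ranged from 1489 to 1834 CPM in cortex and up to 38.5 CPM in liver and 24.8 CPM in muscle. Mir124a-1hg, the host of a microRNA of neurons, had 126 to 233 CPM in cortex and totals of 1 count in liver and 5 in muscle. Miat ranged from 136 to 243 CPM and stayed under 0.7 CPM elsewhere. Processed pseudogenes were less often in the set, at 74 of 717 (10.3%), than protein-coding genes, at 5020 of 15581 (32.2%), with no test of the difference.

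Genes of the set were long. The median span from start to end was 26350 bases, against 18180 bases over all genes tested and 15090 bases in genes lower in cortex than in both, and 19.8% spanned over 100 kb against 12.1% of all genes tested. The X chromosome carried 4.27% of the set and 3.04% of genes tested. All 20 protocadherin beta genes tested, a tandem cluster of adhesion genes, were in the set, with medians of 5.65 and 3.97; these are close relatives whose reads may be split between them. Transcription factors were 5.66% of the set and 5.98% of genes tested. Of 16 transcription factor families with at least 10 genes tested, the 6 largest had 157 of 502 C2H2 zinc finger genes in the set (31.3%), 30 of 94 homeobox genes (31.9%), 34 of 81 bHLH genes (42.0%), 12 of 50 bZIP genes (24%), 9 of 48 ZBTB genes (18.8%) and 20 of 43 HMG genes (46.5%), against 30.6% of all genes tested. In each of the 10 smaller families the share was 28.6% or less. No test of these shares was made.

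Mice that played no part in choosing the genes were fitted in the same way. In AL female mice 25 to 32, 6175 of 19580 genes tested (31.5%) were higher in cortex than in both by edgeR's quasi-likelihood test, and these included 5370 of the 5870 genes of the set that were tested there (91.5%). In IF male mice 9 to 16 the background was 6284 of 19391 (32.4%) and the share of the set 5424 of 5889 (92.1%). In IF female mice 33 to 40 these were 6292 of 19563 (32.2%) and 5426 of 5886 (92.2%). Of the 5993 genes 5015 were called in all 3 groups. Of those tested, 157 in AL females, 134 in IF males and 128 in IF females had a log2 fold change below 0 in either contrast. Of the 4-fold set 3312 of 3362 genes tested were called in AL females (98.5%), and 3202 of its 3483 genes were called in all 3 groups. Among the lists, the numbers higher than both that moved by 2 or more genes in any of these groups were those of layer markers, from 14 to 12, 13 and 11 in AL females, IF males and IF females, microglial markers, from 13 to 9, 12 and 12, sodium channel genes, from 9 to 7, 8 and 7, and modulator receptors, from 19 to 20, 21 and 20. Genes can pass the count filter through their cortex libraries alone, so that a call as higher is partly fixed for them. The genes tested in these groups are not all of the set, and each background includes genes of the set. The shares are therefore a description, and no test of them was made.

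Some genes of the set were not called again. Among those not called in AL females were Atp2a2, Pfn2, Chd3, Mt1 and Uba1, picked by their high counts in AL male cortex with no regard to length. Mt1, a metallothionein that liver induces under stress and by metals, had 171 to 309 CPM in AL male cortex and 5.87 to 14.2 CPM in liver, for a log2 fold change of 4.68 ± 0.17, but a log2 fold change of -1.25 against liver in AL females and of -1.52 in IF females. Atp2a2, the calcium pump of slow muscle and of most other cells, varied from 32.3 to 421 CPM between muscles of the 7 AL males, which overlapped cortex (311 to 390 CPM). Pfn2 had log2 fold changes against muscle of 0.46 in AL males and between 0.11 and 0.21 in the other groups. Whether these values differ between the groups was not tested.

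AL male mouse 1 was outside the choice, and its library labelled cortex did not match its label for sex. Xist, expressed from the inactive X chromosome, was at 213 CPM, here of the plain library total, in it and Y-linked Ddx3y at 0, while the liver and muscle libraries of mouse 1 had no Xist and 54.0 and 37.7 CPM of Ddx3y. All other libraries labelled male had at most 0.612 CPM of Xist, and 95 of 96 libraries matched their label. As a tissue the library did match, since 5889 of the 5993 genes (98.3%) were highest in the cortex library of the 3, against 39.98% of all genes tested.

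The diets were compared in cortex of each sex. In female cortex 2 of 18403 genes (0.0109%) differed between IF and AL by edgeR's quasi-likelihood test, and 0 of the 5986 genes of the set that were tested. DESeq2 called 68 genes, among them 7 of the set that were higher and 12 that were lower in IF. At an unadjusted p under 0.05 edgeR called 2069 genes, 11.2% of all and 12.8% of the set. In male cortex, whose AL libraries are those that chose the set, 1332 of 18462 genes (7.21%) were called, and from 382 to 2259 over the alternatives run. Since the choice favours high values in those AL libraries, no count or median over the set is given for males. The lists with 3 or more genes called in males, named after their values were seen, went in both directions. Lists named here for males hold many genes of the set, so the choice favours lower values in IF for them too. Their counts and medians in males are given as a description only. An effect of diet apart from the choice was not tested. Of 18 ionotropic glutamate receptor genes, 17 of them in the set, 1 was higher and 4 were lower in IF. Of 7 metabotropic receptors, all in the set, 3 were lower. Of 16 GABA receptor genes, 14 of them in the set, 4 were lower. The medians of these lists were -0.09, -0.25 and -0.21. Of 21 cytoskeleton genes 1 was higher and 3 lower, and of 24 RNA-binding genes 3 were lower. Of 14 astrocyte markers 2 were higher and 2 lower, of 10 endothelial markers 4 were higher and 1 lower, and of 20 potassium channel genes 2 were higher and 1 lower. Of 15 oligodendrocyte markers 7 were higher in IF males, with a list median of 0.34. Mbp, a gene of the set, was higher by 0.59 on the log2 scale. Within the AL males the summed level of this list already ranged from 3326 to 5069 CPM. In females the oligodendrocyte list had a median of -0.24, and the difference between the sexes was not tested. The striatal list had a median of 0.63 in males and -0.30 in females, and the part of neighbouring regions in these values was not tested.

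Overlapping annotation limits single genes. Of the 150 genes followed through the alternative settings 73 overlap another annotated gene, and the strand setting of the counting was not given in the sources used here, so reads of overlapping genes may be lost or shared. Snap25, for example, overlaps 1 gene on the opposite strand, while Sncb, Vgf and Slco1c1 overlap none.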

How the data were processed

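Gene counts were deposited by the authors as a table of raw read counts for all libraries, and CASAVA, HISAT2 and build mm39 are named in the submitters' processing notes. TRIzol-extracted, poly-T selected RNA had been made into dUTP directional libraries; the strand setting of the counting was not given in the sources used here. CPM, RPKM and all tests were computed here from these counts.

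Tissues of AL male mice 2 to 8 were compared with edgeR 4.0.16 and limma 3.58.1 in R 4.3.3 by the quasi-likelihood test, with TMM factors, the mouse as a block, a count filter (minimum 10, minimum total 15) and Benjamini-Hochberg adjustment at 0.05. DESeq2 1.42.0 was an alternative. Other mice were fitted likewise; diets were compared without a block. The test was tried on simulated data. Floors are 3 counts over the 7 libraries of a tissue and cover counting error only.

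Mouse numbers come from the library names, and the same number was taken as the same animal. Deviations from the tissue means correlated between same-numbered libraries by -0.038 to 0.05 for cortex and liver and by -0.022 to 0.098 for cortex and muscle. Differently numbered libraries correlated by -0.1 to 0.087 and by -0.075 to 0.1. For liver and muscle the range was -0.019 to 0.025 with the same number and -0.041 to 0.039 with different numbers. Each range for the same number lay within that for different numbers, and a difference between them was not tested.

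Genes named were those of the lists, the 10 of the set with the highest RPKM in cortex, the 10 protein-coding and 5 lncRNA genes with the largest ratio of the lowest cortex library to the highest other library (the latter taken at no less than 3 counts), the 5 most variable in cortex, the 5 with the highest CPM in cortex not called in AL females, and 5 lower in cortex. Some of these genes are not reported here. Genes of the set and lists were chosen with earlier results of these data known. Promoters were read from GRCm39 with GENCODE canonical transcripts. Python 3.11.15 with matplotlib 3.10.9 was used for plots.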

Additional observations from a re-analysis of the deposited data

Results flagged for a closer look

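Among the 150 genes followed in cortex, 10 had a library far from the other 6 by Dixon's test, as had 2 of 55 lists. Chance gives this in about 1 in 20 groups that were chosen without regard to their spread. The 150 genes include those named as the most variable in these cortex libraries, Lrrc10b among them, and for these the rate does not hold. Ttr reached 2034 CPM in mouse 4 and the choroid plexus and ependymal list 2084 CPM in the same library. Lrrc10b reached 91.06 CPM in mouse 6, and Fos 68.45 CPM, Ier2 29.07 CPM and Alb 0.545 CPM in mouse 3, the only library with a count of Scn4a (0.01703 CPM). In mouse 7 Scn1a was high at 64.37 CPM, the calcium pump list summed to 1248 CPM, and Rcor2 was low at 10.99 CPM. Rgs5 was high in mouse 4 at 65.07 CPM and Map2 in mouse 8 at 383.9 CPM.

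Outside the comparison between tissues, the library labelled cortex of AL male mouse 1 held Xist at 213.3 CPM.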

How the results depend on the processing

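The comparison between tissues was repeated with other scalings, filters and tests. By library size alone 9378 genes were higher and 1526 lower in cortex than in both. Log2 fold changes against liver then turned to 0.68 for Reln, 0.54 for Pecam1, 0.32 for Dusp1 and 0.76 for Eef1a1, and against muscle to 1.03 for Elavl1, 0.65 for Flt1, 0.94 for Nr4a1 and 0.89 for Pygl. With at least 10 counts in every library 11146 genes were tested, so that genes absent from liver or muscle dropped out; 9563 differed from liver, 9538 from muscle, 2989 were higher than both and 686 by at least 4-fold. Testing for a change of at least 2-fold left 10162 genes against muscle and 1714 lower than both. Leaving out 1 mouse at a time gave 5879 to 5922 genes higher than both, 3505 to 3669 lower and 3482 to 3510 higher by at least 4-fold, with 16028 to 16135 genes differing from liver and 15309 to 15442 from muscle. Of 300 fold changes of 150 named genes, 278 had the same direction and side of the threshold in all 4 alternatives run for single genes (RLE factors, library size alone, DESeq2, no mouse block). For the shifts with library size alone and with the 2-fold test the cause was not tested.

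Without the mouse block 5999 genes were higher than both, of which 5933 were shared, with 3893 lower, 3390 higher by at least 4-fold, 16477 differing from liver and 15898 from muscle. In the other mice the counts without the block were 6159, 6267 and 6280 for AL females, IF males and IF females. For diet, whose groups share only replicate numbers and not animals, a replicate block gave 0 genes in females and 382 in males, and DESeq2 without the block gave 68 and 2259. The cause was not tested.

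Fits without mice 2 and 4, 5 and 8, or 4 to 7 were chosen after seeing the data and gave 5818, 5799 and 5154 genes higher than both. For a gene at 0 in a tissue the level is known only to be under the floor, 0.0140 CPM in liver and 0.0155 CPM in muscle. Under TMM, RLE, upper quartile scaling and library size alone 15661 to 16676 of the 19557 genes differed in each contrast, so most genes differed under every scaling run and fold changes are relative to the scaling chosen.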
